A study of Mus musculus with 18 samples.

Results

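The 36 genes described here are mouse genes whose transcription is raised by type I interferon, the antiviral cytokine family of interferon alpha and beta. They were chosen by name, with earlier results of these data known. All 36 were found among the 43629 gene IDs of the count table, and each had at least 1 count. RNA was measured by poly(A)-enriched bulk RNA sequencing in cultures of mouse cortical neurons, with 6 libraries in each of 3 groups. The Psmb8 group carried a construct for Psmb8, which takes the place of the catalytic subunit β5 in the immunoproteasome, a form of the proteasome induced by interferon. The Psmb5 group carried one for Psmb5, that is β5 itself, and the mSc group one for mScarlet, a red fluorescent protein used as control. All 3 groups shared lentiviral transduction at 7 days in vitro and harvest after 10 further days; the promoter of the constructs and the share of transduced cells were not given in the sources used here. The titles number the libraries 1 to 6 within each group, without saying whether a number marks an animal, a dissection or a day, so the p-values rest on library-to-library spread, part of which may be technical. The treatment protocol of every sample speaks of an Ifng construct, which the treatment tags do not. Ifng, the type II interferon, had 11 counts over all 18 libraries and at most 3 in any library.

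Type I interferons bind a receptor of the subunits Ifnar1 and Ifnar2, whose Janus kinases phosphorylate STAT proteins. Stat2, a partner STAT protein and Irf9 then form a complex that binds interferon-stimulated response elements in the promoters of its target genes. The targets restrict viruses, sense their nucleic acids, modify proteins with the ubiquitin-like Isg15, and feed back on the receptor. In the brain the same genes respond in neurons and in glia, and many of them also respond to type II interferon, so their levels do not by themselves tell the interferon types apart.

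A response element holds a GAAA repeat, and the promoters of 5 members are printed to show genes that carry such a repeat and genes that do not. The motif searched was GAAANNGAAA on both strands, within 250 bases before to 50 bases after the start of transcription, in RefSeq's promoter table for GRCm38.p6. Of the 36 members, 27 were in that table, and 14 of these (51.9%) held a match, against 1079 of 27025 genes in the table (3.99%). Matches were found for Stat2, Ifit1, Ifit3, Ifit3b, Isg15, Rsad2, Oas1a, Ddx58, Ifih1, Cxcl10, Bst2, Socs1, Trim30a and Eif2ak2. None was found in these windows for Irf7, Irf9, Ifit2, Oasl1, Oasl2, Ifi44, Xaf1, Dtx3l, Lgals3bp, Ifi35, Cmpk2, Samhd1 or Sp100. A match is a run of letters and was not tested for binding. The 5 promoters are those of Isg15 (chr4:156200769-156201068, minus strand), Bst2 (chr8:71537423-71537722, minus strand), Rsad2 (chr12:26456403-26456702, minus strand), Cmpk2 (chr12:26468965-26469264, plus strand) and Oasl2 (chr5:114896684-114896983, plus strand). They are written 5′ to 3′ on the strand of the gene, with matches in capitals.
Isg15: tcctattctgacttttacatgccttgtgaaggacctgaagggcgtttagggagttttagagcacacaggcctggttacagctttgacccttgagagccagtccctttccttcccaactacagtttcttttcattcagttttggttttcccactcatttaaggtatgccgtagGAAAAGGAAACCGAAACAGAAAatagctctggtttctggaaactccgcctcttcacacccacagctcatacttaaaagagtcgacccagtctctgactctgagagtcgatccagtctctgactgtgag
Bst2: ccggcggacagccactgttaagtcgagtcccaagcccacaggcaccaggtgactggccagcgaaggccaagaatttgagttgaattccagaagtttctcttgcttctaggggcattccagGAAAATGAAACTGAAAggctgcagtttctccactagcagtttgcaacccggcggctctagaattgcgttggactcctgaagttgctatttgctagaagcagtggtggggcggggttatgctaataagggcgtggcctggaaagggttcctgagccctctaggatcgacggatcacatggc
Rsad2: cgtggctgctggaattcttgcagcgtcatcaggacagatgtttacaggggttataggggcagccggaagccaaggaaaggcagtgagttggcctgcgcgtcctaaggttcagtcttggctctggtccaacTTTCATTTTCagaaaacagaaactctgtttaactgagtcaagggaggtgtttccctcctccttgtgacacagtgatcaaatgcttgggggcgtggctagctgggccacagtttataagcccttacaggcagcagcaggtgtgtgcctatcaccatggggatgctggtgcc
Cmpk2: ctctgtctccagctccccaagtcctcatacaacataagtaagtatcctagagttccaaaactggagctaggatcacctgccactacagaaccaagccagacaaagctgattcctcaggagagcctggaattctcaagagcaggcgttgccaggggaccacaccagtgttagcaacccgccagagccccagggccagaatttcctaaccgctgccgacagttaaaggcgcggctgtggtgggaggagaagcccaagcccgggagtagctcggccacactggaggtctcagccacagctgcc
Oasl2: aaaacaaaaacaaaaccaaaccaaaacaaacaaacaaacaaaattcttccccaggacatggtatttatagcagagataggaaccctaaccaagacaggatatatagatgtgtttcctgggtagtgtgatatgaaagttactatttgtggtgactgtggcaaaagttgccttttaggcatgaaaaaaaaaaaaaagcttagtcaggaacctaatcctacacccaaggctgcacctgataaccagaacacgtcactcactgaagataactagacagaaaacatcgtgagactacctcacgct
Isg15 held 3 overlapping matches, beginning 78, 72 and 66 bases before the start, and Bst2 held 2 overlapping matches, beginning 130 and 124 bases before it. Rsad2 held a single match 120 to 111 bases before its start, on the opposite strand. Rsad2 and Cmpk2 lie back to back on chromosome 12 with 12.8 kb between them, and the Cmpk2 window held no match. Oasl2, which differed widely between replicate numbers (results for the OAS family), held none either.

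Libraries of the Psmb8 group held 16091906 to 18630396 counts, those of the Psmb5 group 16055974 to 19640543, and those of the mSc group 15337511 to 21074229. Levels are given as CPM, counts scaled to the size of each library, where 1 CPM stood for about 15 to 21 counts, so low members carry a large counting error. Psmb8 had 546 to 1060 CPM in the Psmb8 group and 0.488 to 19.4 CPM elsewhere, and Psmb5 had 238 to 561 CPM in the Psmb5 group and 41.0 to 51.1 CPM elsewhere, which is the order the labels give. Of 12 neuron markers, all were above the filter on low counts, with summed levels of 4860 to 6220 CPM. Of 18 microglia and macrophage markers, 4 passed it, Cd68 among them, while Tmem119 had counts in 1 library, at 0.0588 CPM, Siglech in 1 library, at 0.0624 CPM, and Cx3cr1 and P2ry12 stayed at or below 0.546 CPM. In bulk RNA, fewer cells of a type and less RNA per cell cannot be told apart. The libraries numbered 3 and 6 stood apart from the rest in the members themselves, so the comparisons of groups with the block and the test between numbers are also given without them.

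The filter, 0.575 CPM in at least 6 libraries, passed 29 of the 36 members among 15671 genes. Irf7, Oas1a, Oas2, Oasl1, Mx1, Zbp1 and Sp100 did not pass it. Usp18, Ifi44, Rtp4, Trim30a and Ifi35 reached 0.575 CPM in fewer than 6 of the 12 libraries outside numbers 3 and 6, so these 5 passed only because they were higher there, and counts over the 29 are biased towards members that differ between numbers. For these 5, differences of numbers 3 and 6 are given as descriptions, with no p. Strand use in counting was not given in the sources used here. Parp9 and Dtx3l overlap by 682 bases on opposite strands of chromosome 16, and Irf7, Irf9, Cxcl10 and Rtp4 each overlap another coding gene (Phrf1, Rnf31, Art3 and Masp1, in that order), so part of their counts could come from the neighbour. Ifit3 and Ifit3b are near-identical copies, and reads may have been split between them.

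Per kilobase of exon the members spanned a wide range of levels, and the spread between libraries of a group was often as large as the mean. Lgals3bp, a secreted glycoprotein, was at 8.58 ± 3.93 CPM per kilobase in Psmb8, 9.01 ± 4.27 in Psmb5 and 8.55 ± 4.20 in mSc (SD, n = 6 each). Bst2, the tetherin that holds budding virus at the cell surface, was at 4.91 ± 6.03 CPM per kilobase in Psmb8, 6.69 ± 8.75 in Psmb5 and 7.43 ± 9.73 in mSc. The transcription factor subunit Stat2 was at 6.90 ± 1.56 CPM per kilobase in Psmb8, 6.67 ± 2.02 in Psmb5 and 7.14 ± 2.29 in mSc. These neighbours in the order, with the chemokine Cxcl10 at 4.91 ± 2.97, 5.92 ± 3.03 and 7.15 ± 5.88 CPM per kilobase in Psmb8, Psmb5 and mSc, did not differ beyond their spread. Cmpk2, a mitochondrial nucleotide kinase, came next at 3.93 ± 0.22 CPM per kilobase in Psmb8, 3.54 ± 0.33 in Psmb5 and 3.70 ± 0.54 in mSc, with a spread that was small beside its mean. At the low end, the nuclear body protein Sp100 had 11 counts over all libraries, and Mx1, Oas2, Zbp1 and Oasl1 had 47, 84, 70 and 91.

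**Figure D1:**
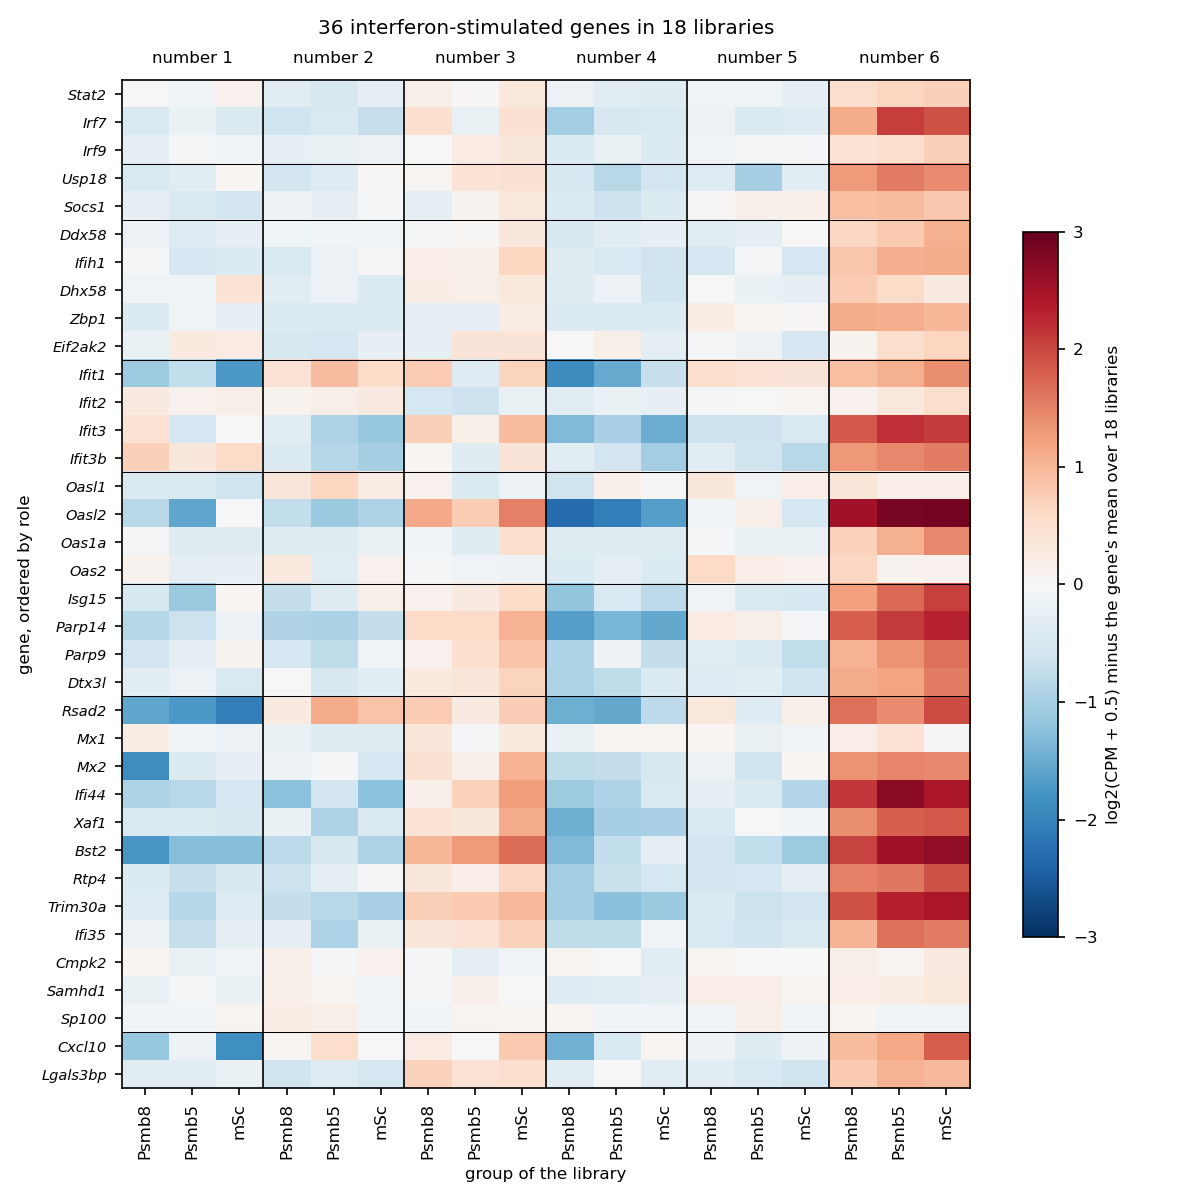
Each row is a member and each column a library, ordered by replicate number and within a number as Psmb8, Psmb5 and mSc; colour is log2(CPM + 0.5) minus the gene's mean over the 18 libraries, on a scale that stops at 3 in either direction. The 3 columns of number 6 are red for most members and those of number 3 for fewer, in each of the 3 groups, while columns of one group across numbers do not share a colour.

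Whether raising a catalytic proteasome subunit changed the interferon-stimulated genes was asked by comparing groups. Fold changes of the members lay mostly a little below 0 in Psmb8 and in Psmb5 against mSc, but no member passed the test in any of the 3 comparisons. Of 29 tested members 0 were called for Psmb8 against mSc, 0 for Psmb5 against mSc and 0 for Psmb8 against Psmb5 (p from edgeR's quasi-likelihood test, adjusted by Benjamini-Hochberg, under 0.05). The share of all genes called was 0.00638%, 0.00638% and 0.0128% in those comparisons. At an unadjusted p under 0.05 the count was 0 members in each, against 2.17%, 0.944% and 1.33% of all genes, and DESeq2 and limma-voom called 0 members as well. Of the 29, 24 had a log2 fold change below 0 for Psmb8 against mSc (median -0.255), 24 for Psmb5 against mSc (median -0.198), and 22 for Psmb8 against Psmb5 (median -0.0671), where 49.5% to 49.7% of all genes lay below 0 and their median was near 0. The Psmb8 and Psmb5 comparisons share the mSc libraries.

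The groups overlapped in every member that led these comparisons. Bst2 had a lowest, median and highest level of 0.607, 1.81 and 14.5 CPM in Psmb8, 1.03, 1.93 and 21.1 CPM in Psmb5, and 1.03, 1.99 and 22.8 CPM in mSc. Isg15, the ubiquitin-like modifier, had 0.288, 0.960 and 3.70 CPM in Psmb8, 0.325, 0.853 and 5.29 CPM in Psmb5, and 0.531, 1.43 and 6.86 CPM in mSc. Irf9, the DNA-binding subunit of the interferon-activated complex, had 13.1, 15.3 and 23.7 CPM in Psmb8, 15, 17.2 and 25.6 CPM in Psmb5, and 13.2, 16.75 and 29.2 CPM in mSc. For each of the 3 genes the highest library of every group was the one numbered 6, and the range within a group was many times the difference between group medians.

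Libraries with the same number deviated together, as detailed with the processing, so the groups were also compared with the replicate number as a block. With the replicate block, 0 of 29 members were called in each comparison as well, where 0.325% of all genes were called for Psmb8 against mSc, 0.00638% for Psmb5 against mSc and 0.0383% for Psmb8 against Psmb5. At an unadjusted p under 0.05 the block gave 10 members for Psmb8 against mSc (10.7% of all genes), 2 for Psmb5 against mSc (6.87%) and 4 for Psmb8 against Psmb5 (7.64%). The members with the smallest p for Psmb8 against mSc were Bst2 (log2 fold change -0.52, SE 0.159, adjusted p = 0.20), Irf9 (-0.18, SE 0.0594, adjusted p = 0.24), Parp9, an ADP-ribosyltransferase (-0.48, SE 0.172, adjusted p = 0.28), and Ddx58, the RNA sensor RIG-I (-0.26, SE 0.0969, adjusted p = 0.29). Isg15 was at -0.65, the ADP-ribosyltransferase Parp14 at -0.39, the chaperone Rtp4 at -0.565 and Ifit2, a binder of viral RNA, at -0.18. None of these 8 passed the threshold, with adjusted p-values from 0.20 to 0.39.

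For Psmb5 against mSc the 8 members with the smallest blocked p were Ddx58 (log2 fold change -0.21), Rtp4 (-0.47), Isg15 (-0.43), Rsad2 (-0.34), Ifi35 (-0.45), Ifit2 (-0.13), Stat2 (-0.09) and Oasl2 (-0.32), with adjusted p-values from 0.71 to 0.80. For Psmb8 against Psmb5 they were Irf9 (-0.16), Bst2 (-0.41), the translation-blocking kinase Eif2ak2 (-0.29), Cmpk2 (0.15), Ifi44 (-0.65), Parp9 (-0.27), Cxcl10 (-0.33) and Ifit3b (0.28), with adjusted p-values from 0.54 to 0.78. None passed, and Cmpk2 and Ifit3b lay on the opposite side from the other 6.

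The blocked result depended on the filter on low counts. With the block and no filter, a setting chosen after the data were seen, 3 of 36 members were called lower in Psmb8 than in mSc, where 0.733% of all genes were: Cxcl10 (log2 fold change -0.49, SE 0.0813, adjusted p = 1.9e-06), Bst2 (-0.53, SE 0.127, adjusted p = 0.0055) and Parp9 (-0.49, SE 0.141, adjusted p = 0.044). Cxcl10 was also called lower in Psmb8 than in Psmb5 (-0.34, SE 0.0828, adjusted p = 0.013), where 0.426% of all genes were called lower, and 0 members were called for Psmb5 against mSc, where 0.473% of all genes were. The Cxcl10 level was lower in Psmb8 than in mSc in 3 of 6 same-numbered pairs. The fold change of Cxcl10 was nearly the same with the filter (-0.48), but its SE was then 0.212 and its adjusted p = 0.43.

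Same-numbered pairs showed how uneven the difference was between numbers. For Psmb8 minus mSc, 14, 15, 25, 20, 10 and 27 of the 29 members were lower in numbers 1 to 6, with median log2 differences of 0.03, -0.04, -0.40, -0.22, 0.16 and -0.365. Over all genes the share lower was 47.7% to 51.0% in these pairs. Members thus lay below mSc mainly in numbers 3, 4 and 6, and above it in number 5. For Psmb5 minus mSc, 20, 16, 28, 16, 12 and 21 members were lower in numbers 1 to 6, with medians of -0.15, -0.10, -0.40, -0.04, 0.05 and -0.11, and over all genes 48.1% to 51.4% were lower. In number 3 the mSc library was the highest of its 3 for 24 of 29 members, where this held for 34.8% of all genes. In number 6 it was the highest for 21, where this held for 34.3% of all genes. Each number holds 1 library of each group, so these counts are descriptions.

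**Figure D2:**
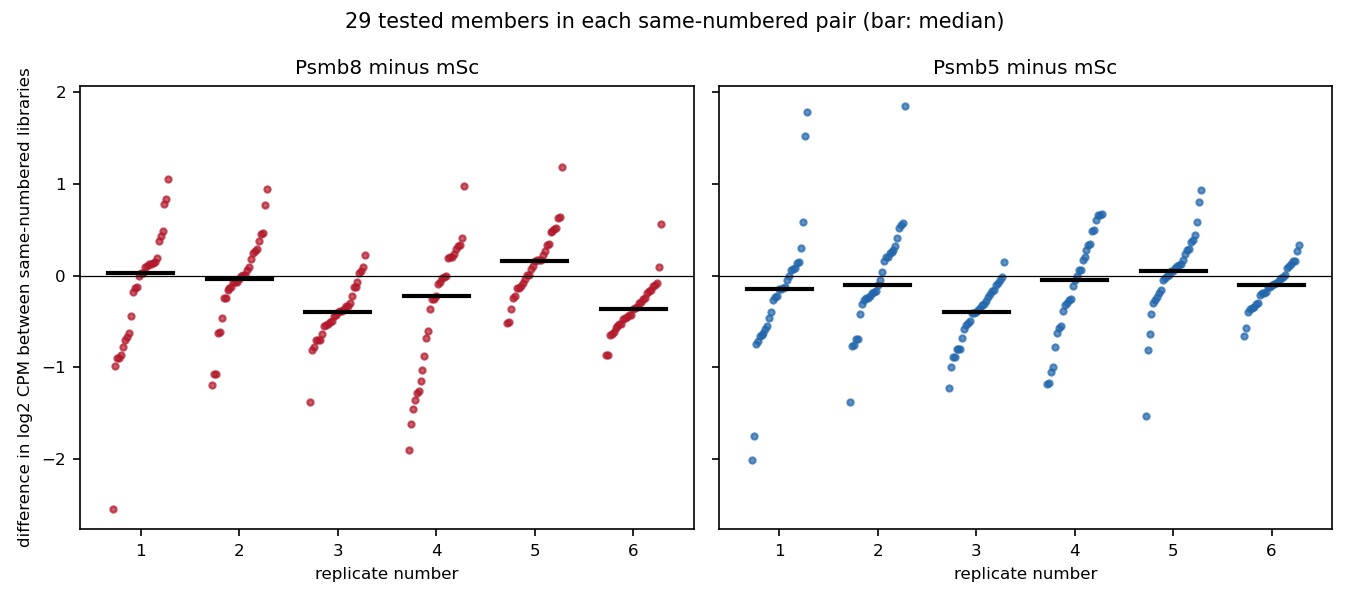
Each point is 1 of the 29 tested members, placed by its difference in log2 CPM between the 2 libraries of a number, Psmb8 minus mSc on the left and Psmb5 minus mSc on the right; points of a number are spread sideways in rising order and bars mark medians. The medians lie at -0.40 in number 3 in both panels and at -0.365 in number 6 for Psmb8 minus mSc, and near 0 or above in numbers 1, 2 and 5 for Psmb8 minus mSc.

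Single members followed this in different ways. Of the 29 members, 1 was lower in all 6 pairs for Psmb8 minus mSc and 1 for Psmb5 minus mSc. For Psmb8 minus Psmb5, 1 was lower in all 6 pairs and 1 in 0. The share of all genes with such runs was not counted, so the runs named here are extremes given as descriptions. Irf9 was lower in Psmb8 than in mSc in 6 of 6 pairs, with a mean log2 difference of -0.17 ± 0.13 (SD) and differences from -0.34 in number 3 to -0.0026 in number 4. Rtp4 was lower in Psmb5 than in mSc in 6 of 6 pairs, at -0.41 ± 0.10, and in Psmb8 than in mSc in 5 of 6. The Rtp4 counts in Psmb5 and mSc were 4 and 5 in numbers 1 and 4, and 9 and 10 in number 2. Those pairs thus lay within counting error. Cmpk2 was higher in Psmb8 than in Psmb5 in 6 of 6 pairs, at 0.15 ± 0.08, and lower in 0. Bst2 was lower in Psmb8 than in mSc in 4 of 6 pairs, with log2 differences of -1.28 in number 4 and 0.64 in number 5. Without numbers 3 and 6, the blocked difference between Psmb8 and mSc was -0.253 for Bst2, -0.097 for Irf9, -0.265 for Parp9, -0.538 for Isg15 and -0.21 for Parp14. Of the 25 members then tested 0 were called in each of the 3 comparisons, where 0.0127%, 0.0127% and 0.0255% of all genes were for Psmb8 against mSc, Psmb5 against mSc and Psmb8 against Psmb5. The median for Psmb8 against mSc was -0.075 with 15 below 0, against -0.22 with 23 of 29 below 0 when all numbers were used. For Psmb5 against mSc it was -0.0426 with 14 of 25 below 0, against -0.162 with 25 of 29. For Psmb8 against Psmb5 it was -0.0381 with 17 of 25 below 0, against -0.0632 with 21 of 29.

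The largest differences among the members ran with the replicate number and were shared by the 3 groups. Number took a median of 90.4% of the variance of a tested member's log2 CPM (range 52.1% to 97.9%), against 66.0% over all genes, while group took a median of 1.95%, at most 17.4%, against 4.66% over all genes. In a fit of group and number, 29 of 29 tested members differed between numbers, where 64.3% of all genes did. The 29 include the 5 that passed the filter only through numbers 3 and 6. Without a filter 33 of 36 did, where 35.3% of all genes did, and the exceptions were Mx1, Oas2 and Sp100. Of the 36, 32 were then higher in number 6, where 7.37% of all genes were. In the blocked comparison of Psmb8 and mSc, Cxcl10 had an SE of 0.0813 without the filter and 0.212 with it. The fit without a filter may thus understate the spread and call too many genes. The summed level of the 36 members was 361, 417 and 460 CPM in the Psmb8, Psmb5 and mSc libraries numbered 6, 238, 229 and 280 CPM in those numbered 3, and 144 to 188 CPM in the other 12.

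**Figure D3:**
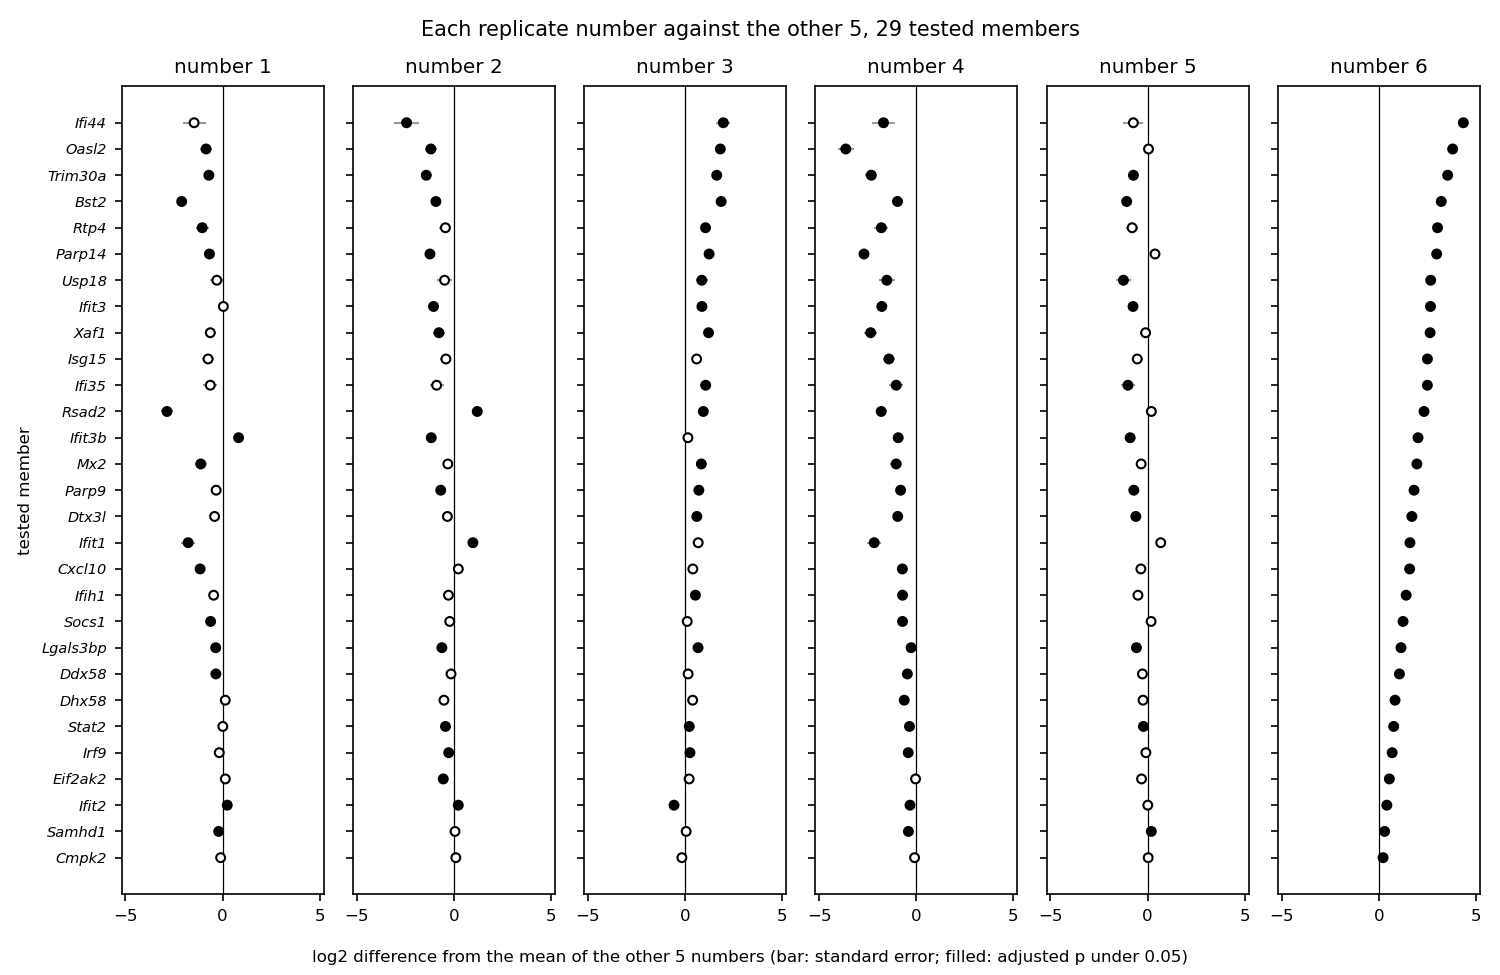
Each panel sets 1 replicate number against the mean of the other 5, with the 29 tested members in the order of their difference in number 6; points are log2 differences, bars are standard errors, and filled points passed an adjusted p of 0.05. All 29 points are filled and right of 0 for number 6, and 27 are filled and left of 0 for number 4. The other panels hold filled points on both sides. The filled points include Usp18, Ifi44, Rtp4, Trim30a and Ifi35, which passed the filter on low counts only through the numbers where they were higher. The fill of these genes was partly set by the filter and is a description, not a test.

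Number 6 was higher than the mean of the other 5 numbers in 29 of 29 tested members, where 14.1% of all genes were higher. The counts for numbers 6 and 3 include Usp18, Ifi44, Rtp4, Trim30a and Ifi35, all 5 as higher. These 5 passed the filter only through those numbers, so their part in the counts was set by the filter. Number 3 was higher in 18 and lower in 1, where 10.5% and 9.44% of all genes were. Number 4 was lower in 27 and higher in 0, where 15.6% and 17.7% were. The 27 include all 5 members that passed the filter only through numbers 3 and 6. Numbers 1, 2 and 5 were lower in 13, 13 and 10 members, where 14%, 17.5% and 14.7% of all genes were, and higher in 2, 3 and 1, where 19.6%, 13.5% and 12.3% were. Some of the same 5 are among those lower in numbers 1, 2 and 5. The median log2 difference of the 29 was -0.46, -0.43, 0.67, -0.96, -0.33 and 1.81 in numbers 1 to 6. Because each number is set against a mean that includes number 6, part of the lower values elsewhere is set by number 6. The 3 libraries numbered 6 lay above all 15 others in CPM in 24 of 29 members, where this held for 1.47% of all genes; Dhx58, Cmpk2, Eif2ak2, Ifit2 and Ifit1 were the exceptions. The libraries numbered 3 lay above the 12 outside numbers 3 and 6 in 15 of 29 members, where this held for 3.9% of all genes. Both counts of separate libraries also include the 5 members that passed the filter only through numbers 3 and 6.

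With numbers 3 and 6 both left out, a setting chosen after the data were seen, 25 members were tested and 14 of them (56%) still differed between numbers 1, 2, 4 and 5, where 51.5% of all genes did. That share was close to the background. Rsad2 (adjusted p = 4.6e-06) and Ifit1 (3.0e-05) led this list, followed by Ifit3b (8.1e-05), Parp14 (8.7e-05) and Samhd1 (0.00020), while Bst2, Isg15, Ddx58, Irf9 and Lgals3bp no longer passed.

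Among the signalling factors, Stat2 had 57.3, 62.3 and 65.6 CPM in the Psmb8, Psmb5 and mSc libraries numbered 6, and 28.5 to 49.2 CPM in the other 15. Irf9 had 23.7, 25.6 and 29.2 CPM in number 6, 17.8 to 22.5 CPM in number 3 and 13.1 to 17.2 CPM in the other 12, so that its 3 ranges did not overlap. Stat2 was higher in number 6 by 0.76 on the log2 scale (SE 0.0572, adjusted p = 3.0e-09) and Irf9 by 0.69 (SE 0.0603, adjusted p = 4.3e-08). Irf7, the factor that amplifies interferon production, did not pass the filter but had 29, 62 and 64 counts in the Psmb8, Psmb5 and mSc libraries numbered 6, 17, 6 and 16 in those numbered 3, and 0 to 7 in the others. Without a filter it was higher in number 6 by 3.30 and in number 3 by 0.97 on the log2 scale. No p is given for these, since the fit without a filter may understate the spread.

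The feedback inhibitors moved in the same direction. Usp18, a protease that removes Isg15 and blocks the receptor, had 2.17, 2.73 and 2.44 CPM in the Psmb8, Psmb5 and mSc libraries numbered 6, 0.649 to 1.0 CPM in number 3 and 0.0517 to 0.646 CPM elsewhere. Socs1, which inhibits Janus kinases, had 4.82, 5.04 and 4.52 CPM in number 6 and 1.36 to 3.07 CPM in the other 15. The level of Usp18 in number 6 was 6.36-fold that in the mean of the others. Socs1 was 2.37-fold higher (adjusted p = 9.2e-07).

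Of the sensors of viral nucleic acid, Ddx58 had 8.29, 9.30 and 11.5 CPM in the Psmb8, Psmb5 and mSc libraries numbered 6 against 3.63 to 6.80 CPM in the other 15, and Ifih1, the RNA sensor MDA5, had 4.35, 5.29 and 5.35 CPM against 1.30 to 3.79 CPM. Ddx58 was 2.08-fold and Ifih1 2.65-fold higher in number 6. Dhx58, their regulator LGP2, was 1.78-fold higher (adjusted p = 0.0023), but its range of 1.72 to 2.59 CPM in number 6 overlapped the 0.709 to 1.94 CPM of the others. Eif2ak2, the kinase PKR, was 1.46-fold higher (adjusted p = 0.0031), with 9.23 to 13.8 CPM in number 6 and 5.87 to 11.4 CPM in the other 15. Zbp1, a sensor of left-handed nucleic acid, had 16, 15 and 16 counts in number 6 and 0 to 5 in every other library.

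The Ifit genes, which bind viral RNA and lie in a row on chromosome 19, did not share a pattern. Ifit3 had 15.3, 19.7 and 18.2 CPM in the Psmb8, Psmb5 and mSc libraries numbered 6, 4.47 to 7.86 CPM in number 3 and 1.06 to 5.46 CPM in the other 12. It was higher in number 6 by 2.66 on the log2 scale (SE 0.149, adjusted p = 1.8e-11). Ifit3b, its neighbour at 19.2 kb, was higher in number 6 by 2.02 on the log2 scale and in number 1 by 0.83 (adjusted p = 0.0017), the only tested member besides Ifit2 that was called higher in number 1. Ifit1 was lower in numbers 1 and 4, with log2 differences of -1.77 and -2.17, and higher in numbers 2 and 6, by 0.98 and 1.60. Its levels were 0.789, 1.14 and 0.323 CPM in the Psmb8, Psmb5 and mSc libraries numbered 1 and 0.231, 0.453 and 1.18 CPM in those numbered 4, against 3.17, 4.69 and 3.49 CPM in those numbered 2. Ifit2 lay between 6.92 and 15.9 CPM in all libraries and was the only tested member called lower in number 3, with a log2 difference of -0.57 (SE 0.0885, adjusted p = 0.00011). Across the 18 libraries the log2 levels of Ifit1 and Ifit2 had r = 0.285, those of Ifit1 and Ifit3 r = 0.503, and those of Ifit3 and Ifit3b r = 0.897; libraries share groups and numbers, so these are descriptions.

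In the OAS family, whose enzymes make a messenger that activates an RNA-degrading enzyme, Oasl2 was both among the most raised in number 6 and the most lowered in number 4. It had 17, 21.5 and 22 CPM in the Psmb8, Psmb5 and mSc libraries numbered 6, 6.27, 4.72 and 8.31 CPM in those numbered 3, and 0.115, 0.227 and 0.472 CPM in those numbered 4. Oasl2 was higher in number 6 by 3.80 on the log2 scale (SE 0.174, adjusted p = 4.8e-13) and lower in number 4, at -3.63 (SE 0.409, adjusted p = 1.6e-06). Oas1a had 9, 14 and 24 counts in number 6 and 0 to 7 in the others. Oasl1 and Oas2 did not separate number 6, with 6 to 8 counts and 5 to 11 counts there, and up to 14 and 11 elsewhere. Oasl1, 11.0 kb from Oasl2, had 1, 1 and 0 counts in the Psmb8, Psmb5 and mSc libraries numbered 1 and 8, 14 and 6 in those numbered 2. These are the directions that Rsad2 and Ifit1 showed, on few counts. No p is given, since the fit without a filter may understate the spread.

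Isg15 and the ADP-ribosylation genes rose together in number 6. Isg15 was 5.66-fold higher there, Parp14 7.88-fold, Parp9 3.51-fold and Dtx3l, the ubiquitin ligase partner of Parp9, 3.25-fold, with adjusted p-values of 9.3e-09, 2.5e-13, 2.5e-08 and 1.6e-09. Parp14 had 7.99, 10.1 and 11.6 CPM in the Psmb8, Psmb5 and mSc libraries numbered 6, 3.14, 3.15 and 4.57 CPM in those numbered 3, and 0.288, 0.453 and 0.354 CPM in those numbered 4. Parp14 was lower in number 4, with a log2 difference of -2.69 (adjusted p = 2.7e-07), second there to Oasl2. Parp9 and Dtx3l, which overlap, had r = 0.931 across libraries.

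Among the other antiviral effectors, Bst2 had the largest joint F of any member. Its levels were 14.5, 21.1 and 22.8 CPM in the Psmb8, Psmb5 and mSc libraries numbered 6, 6.87, 8.49 and 11.3 CPM in those numbered 3, and 0.607 to 2.54 CPM in the other 12. Bst2 was 9.28-fold higher in number 6 and 3.63-fold higher in number 3 than in the mean of the others. Among the 29 tested members Ifi44 had the largest log2 difference of number 6, at 4.35 (SE 0.268), on 78, 117 and 113 counts in its Psmb8, Psmb5 and mSc libraries, against 15, 22 and 41 in number 3 and 0 to 8 elsewhere. The log2 difference of number 6 was 3.54 for Trim30a, a ligase that limits inflammatory signalling in mice, 3.02 for the chaperone Rtp4 and 2.50 for Ifi35. The pro-apoptotic Xaf1 was higher there by 2.64 and the dynamin-like Mx2, which is annotated as a polymorphic pseudogene, by 1.96. Mx1 did not separate the numbers, with 0 to 6 counts in every library.

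Rsad2, the radical SAM enzyme viperin, and its neighbour Cmpk2 parted. Rsad2 had 10.2, 8.63 and 12.9 CPM in the Psmb8, Psmb5 and mSc libraries numbered 6, 3.64, 6.89 and 5.68 CPM in those numbered 2, and 0.668, 0.542 and 0.323 CPM in those numbered 1. It was lower in number 1, with a log2 difference of -2.86 (SE 0.313, adjusted p = 3.6e-07), and in number 4, at -1.81, and higher in number 2 by 1.21 (SE 0.191, adjusted p = 5.8e-05), in number 3 by 0.94 and in number 6 by 2.33. Cmpk2 stayed between 12.2 and 18.7 CPM in all 18 libraries and was called in number 6 alone among the single-number contrasts, at 1.16-fold (adjusted p = 0.030). Rsad2 had r = 0.924 with Ifit1 and r = 0.465 with Cmpk2. Samhd1, which degrades nucleotides, had 33.2 to 35.9 CPM in number 6 and 22.1 to 33.1 CPM in the other 15. It was higher in numbers 5 and 6, by 0.19 and 0.30 on the log2 scale, and lower in number 1, at -0.20, and in number 4, at -0.41 (adjusted p = 3.6e-05).

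**Figure D4:**
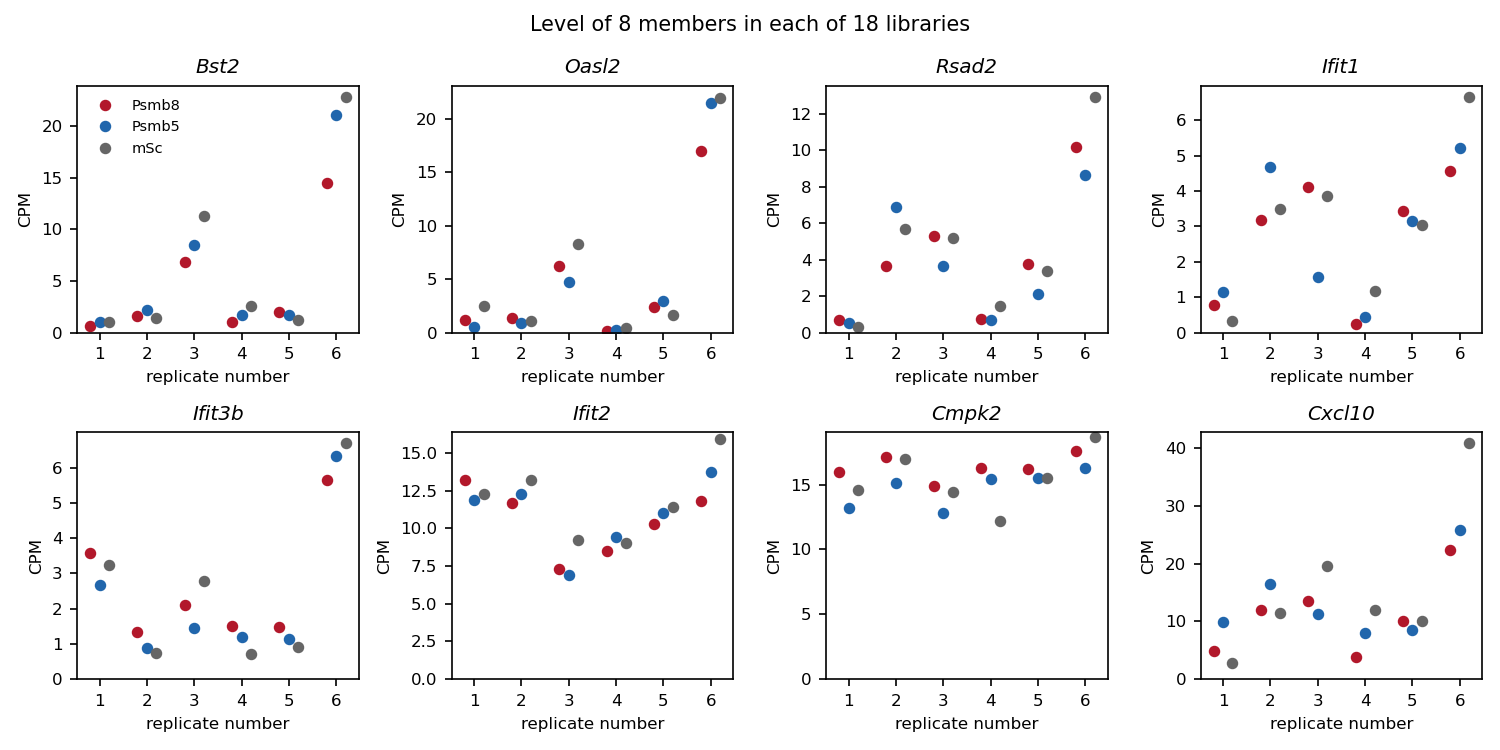
Level in CPM of 8 members in each library, by replicate number, with Psmb8, Psmb5 and mSc side by side within a number. Bst2 and Oasl2 are highest in number 6 and next in number 3, Rsad2 and Ifit1 are low in numbers 1 and 4, Ifit2 has its 2 lowest libraries in number 3, and Cmpk2 lies between 12.2 and 18.7 CPM throughout.

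Of the secreted products, Cxcl10, a chemokine for T cells, had 22.3, 25.8 and 40.8 CPM in the Psmb8, Psmb5 and mSc libraries numbered 6 and 2.78 to 19.6 CPM in the other 15. Cxcl10 was higher in number 6 by 1.59 on the log2 scale (adjusted p = 5.0e-06) and lower in number 1, at -1.15 (adjusted p = 0.0020). Lgals3bp had 40.0, 47.8 and 45.1 CPM in number 6, 37.5, 31.1 and 32.2 CPM in number 3 and 14.9 to 23.0 CPM in the other 12, and its 3 ranges did not overlap. It was higher by 1.14 on the log2 scale in number 6 and by 0.67 in number 3.

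The interferons themselves were hardly detected. The 18 type I interferon genes had 21 counts in all over the 18 libraries, from 6 of the genes, with 3 from Ifnb1. By library they had 3, 2 and 1 counts in the Psmb8, Psmb5 and mSc libraries numbered 6, 1, 0 and 2 in those numbered 3, 4, 4 and 3 in those numbered 5, and 0 in the others apart from 1 in the mSc library numbered 4. The type II and III genes had 12 counts. None of these genes passed the filter, so none was tested, and proteins were not measured.

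Receptors and kinases varied little. Of 9 receptor and Janus kinase genes 8 were tested, their summed level was 419 to 476 CPM in all libraries, and 4 differed between numbers, Jak2 among them, where 64.3% of all genes did. In number 6 the receptor subunit Ifnar2 was higher by 0.22 and Jak2 by 0.19 on the log2 scale, where 14.1% of all genes were higher. Of 16 genes of nucleic acid sensing 13 were tested and 10 differed between numbers, where 64.3% of all genes did. In number 6 Trim25, the ligase that activates RIG-I, was higher by 0.60 and the adaptor Myd88 by 0.33, and Traf3 was lower, at -0.16. No gene of these lists was called between groups with or without the block.

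Of 36 further interferon-stimulated genes, also chosen with earlier results of these data known, 27 were tested. Of these, 26 differed between numbers, where 64.3% of all genes did. In number 6, 23 were higher and 0 lower, where 14.1% and 12.5% of all genes were. In number 3, 21 were higher and 1 lower, where 10.5% and 9.44% of all genes were. The GTPase genes Irgm1, Gbp2 and Igtp, which respond strongly to type II interferon, were higher in number 6 by 3.86, 4.76 and 5.01 on the log2 scale and in number 3 by 2.54, 2.23 and 3.07. Of the same 27, only Gbp2 was called between groups, lower in Psmb8 than in mSc with the block, at -0.86 on the log2 scale (adjusted p = 0.0060), where 0.211% of all genes were called lower. Without numbers 3 and 6 that difference of Gbp2 was -0.56 (adjusted p = 0.50) and was not called, nor was it without number 3 alone (adjusted p = 0.060) or number 6 alone (adjusted p = 0.13). Psmb8 itself, in the libraries that did not overexpress it, had 14.6 and 19.4 CPM in the Psmb5 and mSc libraries numbered 6, 8.37 and 12.2 CPM in those numbered 3, and 0.488 to 3.10 CPM in the others. The tested genes outside the members whose log2 CPM, centred within each group, was most like the mean of the 29 members over the 18 libraries were Cd274 (r = 0.992), Psmb9 (0.983), Gbp2 (0.981), Rnf213 (0.980) and Parp12 (0.979). Within the members, Trim30a (0.976), Rtp4 (0.974) and Irf9 (0.969) were closest to the mean of the others, and Ifit2 (0.232), Cmpk2 (0.409) and Eif2ak2 (0.588) were farthest. Trim30a and Rtp4 passed the filter only through numbers 3 and 6, where most members were higher, so their high r was partly set by the filter.

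Markers of other cells also differed between numbers. In numbers 3 and 6, 6 and 7 of 9 tested oligodendrocyte markers were called lower, as were 2 and 3 of 5 vascular and fibroblast markers. So were 7 and 8 of 10 astrocyte markers, where 9.44% and 12.5% of all genes were. Astrocyte markers were also called lower in numbers 2, 4 and 5 (6, 4 and 6 of 10, where 17.5%, 15.6% and 14.7% of all genes were). In number 4, where the members were lowest, the 13 vascular and fibroblast markers summed to 15.6 to 26.2 CPM. The summed level of the 18 microglia and macrophage markers was 62.4 to 65.8 CPM in number 6, 62.3 to 64.9 in number 3, 57.1 to 63.9 in number 4 and 48.6 to 56.5 in the others. Cd68, a lysosomal protein, was higher in number 6 by 0.57, in number 3 by 0.54 and in number 4, where the members were lowest, by 0.20. The 10 astrocyte markers summed to 1820 to 1930 CPM in number 6, 1740 to 2030 in number 3 and 5010 to 5990 in number 1. The 10 oligodendrocyte markers summed to 251 to 386 CPM in number 6, 266 to 455 in number 3 and 577 to 1130 in the others, and the 13 vascular and fibroblast markers to 16.1 to 19.7 CPM, 15 to 19.9 CPM and 15.6 to 55.0 CPM. In numbers 1 to 6 the median log2 difference of the 9 tested oligodendrocyte markers was 0.90, 0.21, -0.67, 0.73, 0.17 and -0.82, beside members' medians of -0.46, -0.43, 0.67, -0.96, -0.33 and 1.81. For the 10 astrocyte markers the median log2 difference was 1.47, -0.27, -0.33, 0.0039, -0.33 and -0.36 in numbers 1 to 6. The part of these cell types in the members' differences was not tested.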

How the data were processed

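Poly(A)-enriched RNA of 18 cultures was sequenced, 6 libraries in each of 3 groups set by the treatment tags. The authors deposited raw counts per gene for all libraries. STAR 2.4, DESeq2, GRCm39 and mm10 are named, without a role, per the submitters' processing notes. No source used here states the counting tool, its strand setting or the annotation. Of 43629 gene IDs, 42462 carried a symbol.

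Tests on these counts used edgeR 4.0.16 under R 4.3.3 (filterByExpr, TMM scaling, quasi-likelihood test, Benjamini-Hochberg adjustment over all 15671 genes tested, threshold 0.05), and the procedure was tested on simulated data. The members and gene lists were chosen with earlier results of these data known, and the 8 members named per group comparison are those with the smallest p in the blocked fit; differences of numbers are given for the 8 members with the largest joint F and for members called in that number. Groups were compared without a block, and, as an alternative, with the replicate number as a block. Same-numbered libraries deviated together (18 pairs, r 0.447 to 0.729, mean 0.603, for deviations from the group means, against -0.535 to 0.648, mean -0.119, over 90 other pairs), which is a check on the data, since the meaning of a number is not stated. Numbers were compared in the fit of group and number, each against the mean of the other 5. The biological coefficient of variation was 17.9% without and 5.94% with the block. Replicates of a group differed beyond sampling noise in all 45 pairs (chi-square per degree of freedom 2.80 to 35.3). DESeq2 1.42.0 and limma-voom (limma 3.58.1) were alternatives. CPM were computed per library after TMM scaling; levels per kilobase used annotated exon length in GRCm38.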

Additional observations from a re-analysis of the deposited data

Results flagged for a closer look

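In 2 of 87 sets examined (29 tested members in 3 groups), 1 library lay far from the other 5 of its group by Dixon's ratio of gap to range, above its 95% critical value, which chance passes in about 1 set in 20. For Ddx58 in the Psmb5 group the ratio was 0.626, and for Socs1 in the Psmb8 group it was 0.631. In both the library that stood apart was the highest, and it was the one numbered 6.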

How the results depend on the processing

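No member was called between groups under DESeq2, limma-voom, DESeq2's size factors, no filter on low counts or the replicate block (0 called in each comparison), nor without any replicate (0 to 0). DESeq2 gave no adjusted p for a member 47 times. With the block and no filter, chosen after the data were seen, 3 members were called for Psmb8 against mSc and 1 for Psmb8 against Psmb5. With numbers 3 and 6 left out, also chosen after the data were seen, 14 members differed between the remaining numbers.

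Counts for numbers 1, 2, 3 and 5 moved most when a group or a library was left out, and those for numbers 4 and 6 moved less. With the Psmb5 group left out, number 1 gave 8 members against 15, number 2 gave 9 against 16 and number 5 gave 6 against 11. With the Psmb8 group left out number 1 gave 9, and with the mSc group left out number 3 gave 7 against 19 and number 5 gave 7. Leaving out 1 library gave 10 to 18 for number 1, 10 to 17 for number 2 (lowest without Psmb5 replicate 2), 10 to 20 for number 3 (lowest without mSc replicate 3) and 5 to 13 for number 5 (lowest without mSc replicate 5, and 7 without Psmb5 replicate 5). It gave 22 to 28 for number 4 and 27 to 30 for number 6. The causes were not tested.

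Some unblocked group differences of single members changed sign when the library numbered 6 of a group was left out (that of Oasl2 for Psmb5 against mSc also without Psmb5 replicate 4, at 0.008), and none was called. Others kept their sign, among them those of Irf9, Parp9, Ddx58 and Ifit2 for Psmb8 against mSc. Leaving a number out of 1 group keeps it in the other groups, and this imbalance by itself moves an unblocked difference. With number 6 left out of every group, the blocked difference of Psmb8 against mSc was -0.428 for Bst2, -0.535 for Isg15 and -0.319 for Parp14. Leaving out 1 library, the log2 difference of Psmb8 against mSc ranged over -1.467 to 0.339 for Bst2, -1.357 to 0.085 for Isg15, -1.221 to 0.434 for Parp14 and -1.557 to 0.393 for Rtp4. For Psmb5 against mSc it ranged over -0.454 to 0.054 for Ddx58, -1.526 to 0.436 for Rtp4, -1.311 to 0.356 for Isg15, -0.795 to 0.219 for Rsad2, -1.482 to 0.286 for Ifi35, -0.277 to 0.068 for Stat2 and -1.705 to 0.852 for Oasl2. For Psmb8 against Psmb5 it ranged over -1.295 to 0.576 for Bst2, -2.355 to 1.153 for Ifi44, -0.71 to 0.179 for Parp9, -0.591 to 0.03 for Cxcl10 and -0.173 to 0.834 for Ifit3b. Low counts limit members under 1 CPM most.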
